A study of Mus musculus with 8 samples.

Results

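The genes described here encode the translation initiation factors (eIF) and elongation factors (eEF) of the mouse, with their direct inhibitors, kinases and methyltransferases that carry the same names. They are the protein-coding genes of the count table whose symbol begins with Eif1 to Eif6 or Eef1 to Eef2, without the 4 eIF2 alpha kinases Eif2ak1 to Eif2ak4 and without symbols that contain -ps. The rule found 83 genes among the 53700 rows of the table, and 61 of them had enough reads to be tested.

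LLC cells, a line of the mouse Lewis lung carcinoma, were profiled by RNA-Seq in 4 groups of 2 libraries. WT cells and FIH-KO cells, which were edited in Hif1an (the gene of factor inhibiting HIF, FIH), were each grown at 21% O2 (normoxia) or at 1% O2 (hypoxia) for 16 hours in DMEM with fetal bovine serum. The FIH-KO cells came from CRISPR/Cas9 editing of an early exon followed by single-cell dilution, so an effect of the deletion and a property of the selected clone cannot be told apart. The labels do not say whether 2 libraries of a group came from separate cultures, and the p-values then measure only the spread between these samples.

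Translation initiation assembles a ribosome on the start codon. eIF4E binds the mRNA cap, eIF4G bridges it to the ribosome through eIF3, eIF4A unwinds the leader, eIF2 delivers the initiator tRNA, eIF2B recycles eIF2, and eIF5 and eIF5B act when the subunits join. In elongation eEF1A delivers charged tRNAs, the eEF1B complex reloads it with GTP, and eEF2 moves the ribosome along. Low oxygen is known to restrain both steps, through 4E-BP proteins that capture eIF4E and through eEF2 kinase, which switches eEF2 off.

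Hif1an, which checks the labels, averaged 83.4 ± 1.62 (SD, n = 2) in counts-per-million units (CPM, scaled by TMM) in WT and 36.2 ± 2.05 CPM in FIH-KO cells in normoxia, and 87.1 ± 4.34 against 48.3 ± 3.89 CPM in hypoxia, so the transcript was reduced and not absent. Library totals ran from 14519731 to 18177016 counted reads. Vim, Krt8 and Krt18, which mark these carcinoma cells, reached at least 103.8 CPM in each library. The alveolar and airway genes Sftpc, Nkx2-1 and Epcam and the leukocyte genes Adgre1 and Cd3e had 0 reads throughout, which allows up to 3 reads in a library. Cd68 stayed at 2.63 to 7.18 CPM, and the endothelial gene Cdh5 had 18 and 35 reads in WT hypoxia against at most 5 elsewhere. In such bulk samples, fewer cells expressing a gene and less of its RNA per cell cannot be told apart.

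Together the 83 genes took 3.57% and 3.55% of the reads of the WT normoxia libraries, 3.15% and 3.11% in FIH-KO normoxia, 3.39% and 3.17% in WT hypoxia, and 3.20% and 2.99% in FIH-KO hypoxia. The WT normoxia libraries were the highest, FIH-KO normoxia lay below WT hypoxia, and FIH-KO hypoxia overlapped both of these groups. Eef1a1, the main carrier of charged tRNAs, made up the largest part, with 10942 and 10888 CPM in WT normoxia and 8989 to 10334 CPM in the other 6 libraries. Its neuronal and muscle paralog Eef1a2 had at most 1 read in a library. The 22 genes that were not tested had at most 11 reads in any library. They include Eif2s3y, Eif4e1b and 10 of the 16 eIF1A-domain-like genes (Eif1ad2 to Eif1ad19) at 0 reads in every library, while Eif1ad18, the highest of the 16, had 5 to 10 reads. Eif4ebp3, a 4E-BP, had 1 to 8 reads, and the eIF4A3-like genes Eif4a3l1 and Eif4a3l2 at most 11.

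**Figure D1:**
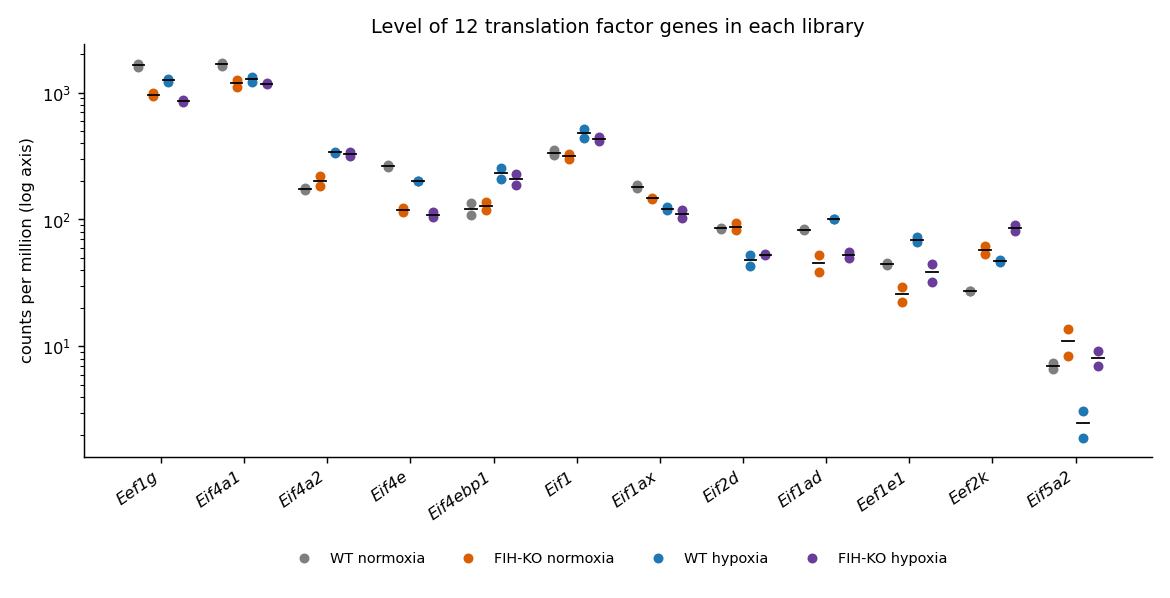
Level of 12 factor genes in CPM on a log axis. Each point is 1 library, the 4 colors are the groups and the short black lines are the means of 2 libraries; Eif4e is lower in FIH-KO cells at both oxygen levels, and Eif4a2 and Eif4ebp1 are higher in hypoxia in both genotypes.

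The first comparison asked how FIH-KO cells differed from WT cells in these genes. In normoxia 2 of the 61 tested genes rose in FIH-KO cells and 22 fell (edgeR, adjusted p under 0.05), where 28.2% of all 13933 tested genes changed, 15.2% upward and 13% downward. The genes that fell were 36.1% of those tested. The median log2 fold change was -0.24, against -0.003 over all tested genes. In hypoxia 4 rose and 14 fell, which are 6.56% and 22.95% of those tested, where 28% of all genes changed, 14.1% upward and 13.9% downward. The median was -0.12, against -0.03 over all genes. In both oxygen conditions Eef2k and Eef2kmt rose, and 11 genes fell (Eef1d, Eef1e1, Eef1g, Eif1ad, Eif2b1, Eif2s3x, Eif3a, Eif3g, Eif3j1, Eif4e and Eif5b). The share of all tested genes called in both conditions was not counted, so these shared calls have no background beside them. The normoxia count of lower genes was 7 without WT normoxia replicate 1 or without FIH-KO normoxia replicate 1, 10 without WT normoxia replicate 2 and 22 without FIH-KO normoxia replicate 2. In hypoxia it was 4 without WT hypoxia replicate 1, which also brought the median to -0.0004, 8 without WT hypoxia replicate 2, 9 without FIH-KO hypoxia replicate 2 and 12 without FIH-KO hypoxia replicate 1. Of the 2 higher genes in normoxia 1 was left without any 1 library.

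The second comparison asked how 1% O2 changed them. In WT cells 11 rose and 19 fell, where 32.4% of all genes changed, 16.9% upward and 15.5% downward, so that the lower calls were 31.1% of the tested factor genes and the higher ones 18.0%. In FIH-KO cells 9 rose and 4 fell, where 16.8% of all genes changed, 8.84% upward and 8% downward. The 9 that rose in FIH-KO cells (Eef1e1, Eef2k, Eif1, Eif1a, Eif1b, Eif2s2, Eif3c, Eif4a2 and Eif4ebp1) also rose in WT cells. The 4 that fell (Eif1ax, Eif2b1, Eif2d and Eif3l) also fell there. For all tested genes the share called in both genotypes was not counted. The median log2 fold change was -0.16 in WT and -0.03 in FIH-KO cells, against -0.001 and -0.03 over all genes. The WT counts were 5 to 9 higher and 7 to 14 lower with 1 of the 4 libraries left out, with 5 higher genes without either WT normoxia replicate or without WT hypoxia replicate 1, and 7 lower ones without WT normoxia replicate 2 or WT hypoxia replicate 2. The FIH-KO counts were 3 to 9 and 1 to 4, with 3 higher genes without FIH-KO normoxia replicate 1 and 1 lower gene without either FIH-KO normoxia replicate or FIH-KO hypoxia replicate 1. A fit with 1 library left out assumes that the lone library of its group varies like the others. The 2 questions share libraries: WT normoxia, for instance, is the reference of FIH-KO in normoxia and of hypoxia in WT cells, so that counts of the 2 kinds are not independent.

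No gene passed the test of whether the FIH-KO effect differed between hypoxia and normoxia. None of the 13933 genes had an edgeR adjusted p under 0.05 for this difference (0% called), with 925 genes at an unadjusted p under 0.05 and 35 genes called by DESeq2. Among the 61 factor genes 2 had an unadjusted p under 0.05, DESeq2 called 0, and the lowest edgeR adjusted p was 0.665. A call in 1 condition and none in the other therefore does not show below that the effects differ.

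The promoter sequence of a few of these genes is shown because their levels followed oxygen or genotype. RefSeq windows of 250 bases before and 50 after a start (build GRCm38.p6) matched 50 of the 83 genes, with 64 windows. The motifs searched on both strands were ACGTG and GCGTG, the core of the hypoxia response element, and CACGTG, the E-box, which holds ACGTG on each strand. Of the 64 windows 39.1% held ACGTG, against 19.6% of all 32851 windows, 59.4% held GCGTG against 32.4%, and 25% held CACGTG against 7.15%. All windows include those of genes not tested here, and windows matched for expression or base content were not compared. Of the 9 genes that rose in hypoxia in both genotypes 7 had windows, and 4 of the 7 held ACGTG and 5 GCGTG. Of their 9 windows 44.4% held ACGTG and 66.7% held ACGTG or GCGTG. The 4 that fell in both had 4 windows, of which 0 held ACGTG and 3 held GCGTG (75%). Over the 61 windows of tested factor genes 41.0% held ACGTG and 75.4% held either. These are matches of letters, not sites shown to be bound.

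The stretches below were placed in GRCm39 by exact match, are on the plus strand, 5′ to 3′, and have the motifs in capitals. For Eif4a2 (chr16:22925968-22926118), Eif5a2 (chr3:28835176-28835360) and Eif4e (chr3:138231702-138231935) they end at the base before the canonical GENCODE start, while for Eef2k (chr7:120442011-120442040) and Eif1b (chr9:120321636-120321665) 30 bases around the E-box are given. Eif5a2 holds 2 E-boxes and Eif4a2 and Eif4e hold GCGTG on the minus strand alone, as CACGC. Eif4e has another window, not printed, that holds 2 CACGTG, 5 ACGTG and 1 GCGTG, and the stretch shown is from the window nearest to the canonical start.
Eef2k: cccggggacggcCACGTGagcccggGCGTG
Eif1b: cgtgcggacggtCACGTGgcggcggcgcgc
Eif4a2: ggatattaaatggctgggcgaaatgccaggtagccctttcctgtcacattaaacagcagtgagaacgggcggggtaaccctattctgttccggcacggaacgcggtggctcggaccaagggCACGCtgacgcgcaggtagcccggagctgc
Eif5a2: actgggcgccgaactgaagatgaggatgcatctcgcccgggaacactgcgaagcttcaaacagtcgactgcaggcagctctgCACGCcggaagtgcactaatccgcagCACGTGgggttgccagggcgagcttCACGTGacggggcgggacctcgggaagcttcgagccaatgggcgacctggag
Eif4e: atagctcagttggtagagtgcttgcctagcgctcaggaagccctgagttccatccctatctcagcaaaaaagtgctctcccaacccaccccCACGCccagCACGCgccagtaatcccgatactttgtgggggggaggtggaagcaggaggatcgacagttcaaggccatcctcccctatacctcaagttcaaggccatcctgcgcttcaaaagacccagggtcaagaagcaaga

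**Figure D2:**
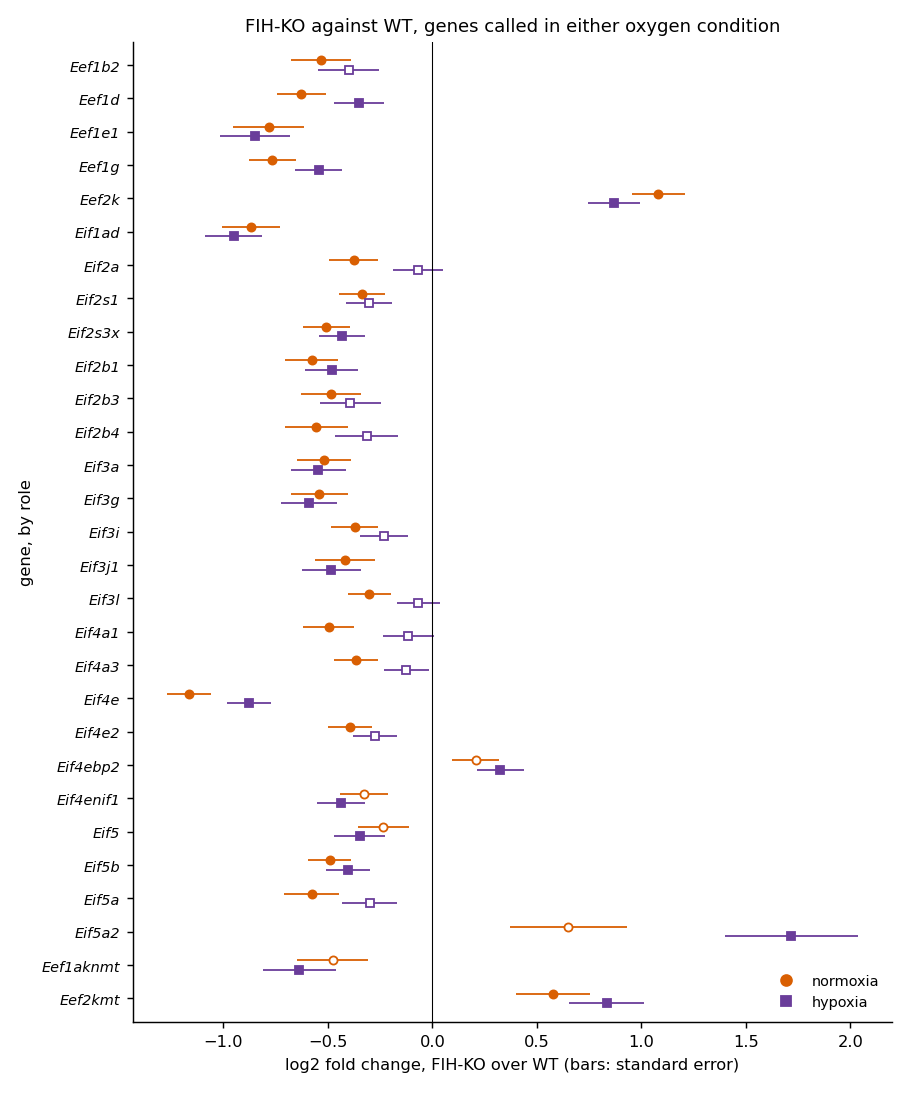
Log2 fold change of FIH-KO over WT in normoxia (orange circles) and hypoxia (purple squares), with standard errors, for the 29 factor genes called in either. Filled symbols passed the edgeR test at an adjusted p under 0.05; Eif4e has the lowest values in normoxia, and Eef2k, Eef2kmt, Eif4ebp2 and Eif5a2 lie above 0.

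Among elongation factors, the eEF1B complex and its associate eEF1E1 stood on the low side in FIH-KO cells. All 4 genes fell in normoxia and 3 of 4 in hypoxia, where 13% and 13.9% of all tested genes fell. Eef1g, the gamma subunit of the exchange complex, was counted at 1603 and 1671 CPM in WT normoxia, 941.7 and 985.4 in FIH-KO normoxia, 1285 and 1215 in WT hypoxia, and 840.1 and 873.5 CPM in FIH-KO hypoxia. The FIH-KO libraries lay below the WT libraries at both oxygen levels without overlap, and Eef1g fell by 0.76 ± 0.11 (log2, SE) in normoxia (edgeR adjusted p = 0.000489) and by 0.54 ± 0.11 in hypoxia (adjusted p = 0.00383). Both calls stood with each library left out in turn, as did that of Eef1e1 in hypoxia. Eef1d, the delta subunit, had 424.8 and 418.2 CPM in WT normoxia against 248.7 and 297.2 in FIH-KO normoxia, and fell by 0.63 ± 0.12 (edgeR adjusted p = 0.00234). Its decrease in hypoxia was smaller, by 0.35 ± 0.12 (edgeR adjusted p = 0.0436), and was lost without any 1 of the 4 hypoxia libraries (adjusted p 0.0757 to 0.319), with upper-quartile scaling (0.0544), with no filter beyond 1 read (0.0668), with at least 10 counts in every library (0.052) and in the fit on 4 libraries (0.0942).

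Eef1e1, which joins the multi-tRNA synthetase complex, moved with both oxygen and genotype. It had 45.3 and 44.0 CPM in WT normoxia, 22.5 and 29.3 in FIH-KO normoxia, 72.1 and 66.8 in WT hypoxia, and 44.9 and 32.2 CPM in FIH-KO hypoxia. FIH-KO cells were lower at each oxygen level, and hypoxia libraries were higher within each genotype. It fell in FIH-KO cells by 0.78 ± 0.17 in normoxia (edgeR adjusted p = 0.00529) and by 0.85 ± 0.17 in hypoxia (adjusted p = 0.00301), and rose in hypoxia by 0.64 ± 0.17 in WT cells (adjusted p = 0.0125) and by 0.57 ± 0.17 in FIH-KO cells (adjusted p = 0.0399). The normoxia decrease was lost without FIH-KO normoxia replicate 1 (adjusted p = 0.057). The rise in WT cells was lost without either WT normoxia replicate or WT hypoxia replicate 1 (adjusted p up to 0.109), and that in FIH-KO cells without replicate 1 of either FIH-KO group (adjusted p up to 0.238) and in the fit on 4 libraries (0.0953).

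Eef1b2, the alpha exchange subunit, fell by 0.53 ± 0.14 in normoxia (edgeR adjusted p = 0.0163) and had a log2 fold change of -0.40 ± 0.14 in hypoxia that missed the threshold (adjusted p = 0.0561), which DESeq2 placed at 0.0318. Its normoxia call was lost without either WT normoxia replicate or FIH-KO normoxia replicate 2 (adjusted p up to 0.0963). Taken per Eef1a1 read, Eef1g reads were 0.150 ± 0.00492 in WT normoxia and 0.0999 ± 0.0124 in FIH-KO normoxia (SD, n = 2), and 0.133 ± 0.00266 against 0.0901 ± 0.00695 in hypoxia. Eef1g was thus lower per read of Eef1a1 as well as against the whole library. In WT cells hypoxia also lowered Eef1d by 0.52 ± 0.12 (edgeR adjusted p = 0.00566) and Eef1g by 0.39 ± 0.11 (adjusted p = 0.0195). These calls were lost without WT hypoxia replicate 2 (adjusted p = 0.0614 and 0.114), that of Eef1g also without either WT normoxia replicate (adjusted p = 0.0588 and 0.106).

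Eef2k moved in the opposite direction. It encodes eEF2 kinase, a calmodulin-dependent kinase that inactivates eEF2 by phosphorylation and so slows elongation, and lies at chr7:120441877-120506674 (GRCm39, plus strand). It was counted at 27.2 and 27.1 CPM in WT normoxia, 62.1 and 53.0 in FIH-KO normoxia, 48.1 and 46.1 in WT hypoxia, and 91.2 and 81.0 CPM in FIH-KO hypoxia. No 2 groups overlapped: WT normoxia was lowest, FIH-KO hypoxia highest, and FIH-KO cells in normoxia lay above WT cells in hypoxia. Eef2k rose in FIH-KO cells by 1.08 ± 0.13 in normoxia (edgeR adjusted p = 0.000111) and by 0.87 ± 0.12 in hypoxia (adjusted p = 0.000438), and in hypoxia by 0.79 ± 0.13 in WT cells (adjusted p = 0.000752) and by 0.58 ± 0.12 in FIH-KO cells (adjusted p = 0.00765). The last of these calls was lost without FIH-KO normoxia replicate 2 (adjusted p = 0.0525), and the other 3 stood under each alternative run.

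Its substrate Eef2 did not pass the test in any of the 4 comparisons and ranged from 3639 to 5227 CPM over the 8 libraries. The kinase therefore had more reads per read of its substrate: the ratio of Eef2k to Eef2 reads was 0.00705 ± 0.000613 in WT normoxia, 0.0136 ± 0.000768 in FIH-KO normoxia, 0.0108 ± 0.00113 in WT hypoxia and 0.0190 ± 0.00223 in FIH-KO hypoxia (SD, n = 2). These are ratios of reads, and not of protein or of phosphorylated eEF2.

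The other gene that rose in FIH-KO cells at both oxygen levels, Eef2kmt, encodes the methyltransferase of a lysine of eEF2. It had 22.1 and 20.9 CPM in WT normoxia, 30.5 and 33.5 in FIH-KO normoxia, 17.1 and 18.5 in WT hypoxia, and 37.8 and 25.6 CPM in FIH-KO hypoxia, so that FIH-KO libraries were higher throughout. The rise was 0.58 ± 0.18 in normoxia (edgeR adjusted p = 0.0296) and 0.83 ± 0.18 in hypoxia (adjusted p = 0.005). The normoxia call was lost without any 1 of its 4 libraries (adjusted p 0.0857 to 0.177), and 4804 exonic bases are shared with Alg1 on the opposite strand. Alg1 had 3533 reads over the 8 libraries against 3381 of Eef2kmt. The strand setting of the counting is not given in the sources used here, so reads of overlapping genes may not be told apart.

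Of the other 5 elongation factor methyltransferases, which modify lysines of eEF1A and whose levels were 0.45 to 56.9 CPM, Eef1aknmt fell in FIH-KO cells in hypoxia by 0.64 ± 0.17 (edgeR adjusted p = 0.0174), which was lost without WT hypoxia replicate 1 (adjusted p = 0.254), without FIH-KO hypoxia replicate 2 (adjusted p = 0.094) and in the fit on 4 libraries (adjusted p = 0.0542). Eef1akmt1 fell in WT hypoxia by 0.54 ± 0.15 (edgeR adjusted p = 0.0168), a call lost without either WT normoxia replicate or WT hypoxia replicate 2 (adjusted p up to 0.0993). Eef1akmt3 was near the detection limit at 0.45 and 0.47 CPM in WT normoxia and reached 1.85 and 2.05 CPM in WT hypoxia. It rose there by 2.06 ± 0.42 (edgeR adjusted p = 0.00318) from 7 and 8 reads to 33 and 30, and shares 100 exonic bases on the opposite strand with Mettl1, which had 4000 reads over the 8 libraries against 136. In FIH-KO cells Eef1akmt3 had a log2 fold change of 1.28 in hypoxia, which was not called.

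Among the factors that scan for the start codon, eIF1 and eIF1A hold the small subunit open. Of these 5 genes 3 rose in hypoxia in each genotype, where 16.9% of all tested genes rose in WT and 8.84% in FIH-KO cells. Eif1 had 319.4 and 351.7 CPM in WT normoxia, 301.8 and 328.7 in FIH-KO normoxia, 518.2 and 439.8 in WT hypoxia, and 419.0 and 442.7 CPM in FIH-KO hypoxia. All 4 hypoxia libraries were above all 4 normoxia libraries, with a rise of 0.51 ± 0.12 in WT (edgeR adjusted p = 0.00659) and 0.45 ± 0.12 in FIH-KO cells (adjusted p = 0.0231). Its close homolog Eif1b rose by 0.56 ± 0.14 in WT (edgeR adjusted p = 0.0116) and by 0.75 ± 0.15 in FIH-KO cells (adjusted p = 0.00506), from 15.2 to 19.5 CPM in normoxia to 24.5 to 28.8 CPM in hypoxia.

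The paralogs of eIF1A, which encode nearly the same protein, moved against each other. Eif1a, the autosomal copy, rose by 0.47 ± 0.13 in WT (edgeR adjusted p = 0.0139) and by 0.55 ± 0.13 in FIH-KO cells (adjusted p = 0.0126), while the X-linked Eif1ax fell by 0.57 ± 0.11 (adjusted p = 0.00224) and 0.41 ± 0.11 (adjusted p = 0.0258). Eif1a thus went from 54.8% ± 0.761 of the reads of the pair in WT normoxia to 71.4% ± 2.21 in WT hypoxia, and from 56.8% ± 2.89 to 71.8% ± 4.25 in FIH-KO cells (SD, n = 2). The hypoxia libraries lay above the normoxia libraries in both genotypes, and the genotypes overlapped at each oxygen level. Per base of canonical transcript the share of Eif1a was higher, 74.4% and 85.7% in WT normoxia and hypoxia, with the same direction. Near-identical copies can share reads, which leaves the split between them uncertain.

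Several of these calls rested on single libraries. The rises of Eif1, Eif1a and Eif1b in WT cells were lost without WT normoxia replicate 1 (adjusted p = 0.113, 0.0666 and 0.0658) and without WT hypoxia replicate 1 (0.109, 0.137 and 0.103), and those of Eif1a and Eif1b also without WT normoxia replicate 2 (0.173 and 0.144). In FIH-KO cells the calls of Eif1, Eif1a and Eif1ax were lost without FIH-KO normoxia replicate 1 (adjusted p = 0.118, 0.0917 and 0.0959). Those of Eif1ax were lost there also without FIH-KO normoxia replicate 2 or FIH-KO hypoxia replicate 1 (0.114 and 0.172), and that of Eif1 without FIH-KO hypoxia replicate 2 (0.0541), and both in the fit on 4 libraries (0.117 for Eif1ax and 0.0611 for Eif1). The Eif1b call in FIH-KO and the Eif1ax call in WT cells stood under each alternative run.

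Eif1ad, a nuclear protein with an eIF1A-like domain, was called by genotype and in neither comparison of oxygen. It had 83.5 and 82.7 CPM in WT normoxia, 38.8 and 52.2 in FIH-KO normoxia, 101.6 and 100.7 in WT hypoxia, and 55.2 and 49.5 CPM in FIH-KO hypoxia. FIH-KO libraries were below WT libraries without overlap, and the gene fell by 0.87 ± 0.14 in normoxia (edgeR adjusted p = 0.000826) and by 0.95 ± 0.14 in hypoxia (adjusted p = 0.000503). Both calls stood under each alternative run. It lies at chr19:5416423-5421562 and shares 1192 exonic bases with Banf1 on the opposite strand, which had 18014 reads over the 8 libraries against 9210.

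Of the genes around eIF2, which brings the initiator tRNA, Eif2s3x (the gamma subunit, which binds GTP and tRNA) fell in FIH-KO cells at both oxygen levels. It had 178.3 and 165.6 CPM in WT normoxia, 111.6 and 130.5 in FIH-KO normoxia, 158.3 and 162.1 in WT hypoxia, and 121.8 and 115.8 CPM in FIH-KO hypoxia. WT and FIH-KO libraries did not overlap, and the change was -0.51 ± 0.11 in normoxia (edgeR adjusted p = 0.00531) and -0.43 ± 0.11 in hypoxia (adjusted p = 0.0128). The first was lost without replicate 1 of either normoxia group (adjusted p = 0.0584 and 0.0508), and the second without either WT hypoxia replicate or FIH-KO hypoxia replicate 2 (adjusted p up to 0.0783).

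Eif2s2, the beta subunit, rose in hypoxia by 0.35 ± 0.10 in WT (edgeR adjusted p = 0.0222) and by 0.47 ± 0.10 in FIH-KO cells (adjusted p = 0.0092), from 244.8 to 305.8 CPM over the normoxia libraries to 348.4 to 386.7 CPM over the hypoxia libraries. The WT call was lost without any 1 of its libraries (adjusted p up to 0.208), and the FIH-KO call without FIH-KO normoxia replicate 1 (adjusted p = 0.0584). Eif2s1, the alpha subunit whose phosphorylation shuts initiation down, fell in FIH-KO normoxia by 0.34 ± 0.11 (edgeR adjusted p = 0.0392), a call lost without either WT normoxia replicate or FIH-KO normoxia replicate 1 (adjusted p up to 0.2) and with no filter on low counts (adjusted p = 0.0603).

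Eif2d, which can place tRNA on the small subunit without eIF2, had the largest decrease in hypoxia that was called in both genotypes. It had 84.8 and 86.2 CPM in WT normoxia, 93.7 and 82.1 in FIH-KO normoxia, 43.3 and 52.4 in WT hypoxia, and 52.8 and 53.0 CPM in FIH-KO hypoxia. The 4 hypoxia libraries lay well below the 4 normoxia libraries whatever the genotype, and Eif2d fell by 0.84 ± 0.12 in WT (edgeR adjusted p = 0.00046) and by 0.73 ± 0.12 in FIH-KO cells (adjusted p = 0.0022). Both calls stood under each alternative run. Eif2a, a separate protein from eIF2 alpha with a similar proposed role, fell in WT hypoxia by 0.47 ± 0.12 (edgeR adjusted p = 0.00977) and in FIH-KO normoxia by 0.38 ± 0.12 (adjusted p = 0.0315). Without 1 library these calls were lost, the first without WT normoxia replicate 2 or WT hypoxia replicate 2 (adjusted p = 0.0683 and 0.0768), the second without any of its 4 (adjusted p up to 0.153) and with no filter on low counts (adjusted p = 0.0658). On the opposite strand Eif2d shares 2245 exonic bases with Rassf5, and Eif2a 488 with Serp1. Over the 8 libraries Rassf5 had 431 reads against 9016 of Eif2d, and Serp1 had 19814 against 8867 of Eif2a.

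The 5 subunits of eIF2B, the exchange factor that returns eIF2 to its GTP-bound form, fell in FIH-KO normoxia for 3 of 5 genes, where 13% of all tested genes fell. Eif2b1, the alpha subunit, was called in all 4 comparisons. It had 51.7 and 48.5 CPM in WT normoxia, 32.7 and 34.4 in FIH-KO normoxia, 35.3 and 31.9 in WT hypoxia, and 23.9 and 24.2 CPM in FIH-KO hypoxia. WT normoxia was highest, FIH-KO hypoxia lowest, and the other groups lay between and overlapped. It fell in FIH-KO cells by 0.58 ± 0.12 in normoxia (edgeR adjusted p = 0.00495) and by 0.48 ± 0.13 at 1% O2 (adjusted p = 0.015). Hypoxia against normoxia gave a decrease by 0.57 ± 0.13 in WT (adjusted p = 0.00463) and 0.48 ± 0.13 in FIH-KO cells (adjusted p = 0.0242).

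The WT hypoxia call of Eif2b1 stood under each alternative run. Its other calls were lost without WT normoxia replicate 1 (adjusted p = 0.0541) for FIH-KO in normoxia, without WT hypoxia replicate 1 or FIH-KO hypoxia replicate 1 (0.141 and 0.0577) for FIH-KO in hypoxia, and without either FIH-KO normoxia replicate or FIH-KO hypoxia replicate 1 (up to 0.122) for hypoxia in FIH-KO cells. The fit on only the 4 libraries of a comparison also lost the last pair (0.0661 and 0.100). The gene shares 2484 exonic bases with Ddx55 on the opposite strand. Eif2b3 and Eif2b4 fell in FIH-KO normoxia by 0.48 ± 0.14 (edgeR adjusted p = 0.0249) and 0.55 ± 0.15 (adjusted p = 0.0156), and both calls were lost without WT normoxia replicate 2 (0.104 and 0.121) or FIH-KO normoxia replicate 1 (0.146 and 0.0912), that of Eif2b3 also without WT normoxia replicate 1 (0.103). Eif2b4 also fell in WT hypoxia by 0.42 ± 0.15 (edgeR adjusted p = 0.0492), a call lost without any 1 library (up to 0.253), with DESeq2 (0.0657), with a replicate block (0.0596) and with no filter on low counts (0.0809). Eif2b5, the catalytic subunit, at 153.3 to 191.4 CPM, was not called in any of the 4 comparisons.

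eIF3, a scaffold of many subunits on the small ribosomal subunit, did not move as one. Of 14 genes 5 fell in FIH-KO normoxia (Eif3a, Eif3g, Eif3i, Eif3j1 and Eif3l) and 3 in FIH-KO hypoxia (Eif3a, Eif3g and Eif3j1), and none rose. The lower genes were 35.7% and 21.4%, beside 13% and 13.9% of all tested genes. Eif3a, the largest core subunit, had 898.1 and 948.8 CPM in WT normoxia, 581.7 and 706.4 in FIH-KO normoxia, 1131 and 993.2 in WT hypoxia, and 700.8 and 755.9 CPM in FIH-KO hypoxia. FIH-KO libraries lay below WT libraries at each oxygen level, with a change of -0.52 ± 0.13 (edgeR adjusted p = 0.0107) and -0.54 ± 0.13 (adjusted p = 0.0085). Eif3g, which binds mRNA and eIF4B, fell by 0.54 ± 0.14 (edgeR adjusted p = 0.0111) and 0.59 ± 0.14 (adjusted p = 0.00705), from 144.5 and 148.4 to 95.7 and 105.8 CPM in normoxia and from 177.4 and 166.4 to 131.1 and 97.2 CPM in hypoxia.

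The Eif3a and Eif3g calls in hypoxia were lost without WT hypoxia replicate 1 (adjusted p = 0.108 and 0.0718), and in normoxia without WT normoxia replicate 2 (0.0749 and 0.0629) or FIH-KO normoxia replicate 1 (0.0893 and 0.0794), that of Eif3g also without WT normoxia replicate 1 (0.052). Eif3j1, a subunit that loosens the scanning complex, fell by 0.42 ± 0.14 in normoxia (edgeR adjusted p = 0.0464) and by 0.48 ± 0.14 in hypoxia (adjusted p = 0.0244). These calls were lost without either WT replicate (adjusted p up to 0.202 and 0.118) and without FIH-KO normoxia replicate 1 (0.305) or FIH-KO hypoxia replicate 2 (0.127), the first also in the fit on 4 libraries (0.0523). The gene shares 1480 exonic bases with Spg11 on the opposite strand, which had 12154 reads over the 8 libraries against 11875. Eif3j2, the near-identical copy of Eif3j1, took 2.78% to 3.32% of their joint reads as group means.

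Hypoxia moved other eIF3 subunits. Eif3c, a core subunit, had 604.3 and 581.9 CPM in WT normoxia, 582.9 and 607.1 in FIH-KO normoxia, 868.2 and 828.1 in WT hypoxia, and 801.8 and 748.9 CPM in FIH-KO hypoxia. It rose by 0.52 ± 0.11 in WT (edgeR adjusted p = 0.0039) and by 0.38 ± 0.11 in FIH-KO cells (adjusted p = 0.032), with genotypes overlapping in normoxia. Eif3i and Eif3l fell in FIH-KO normoxia by 0.37 ± 0.11 (edgeR adjusted p = 0.0294) and 0.30 ± 0.10 (adjusted p = 0.0438), calls lost without either WT normoxia replicate or FIH-KO normoxia replicate 1 (up to 0.143 and 0.183), that of Eif3i also without FIH-KO normoxia replicate 2 (0.07) and that of Eif3l also with no filter beyond 1 read (0.113) and with a replicate block (0.0501). Against the rise of Eif3c, Eif3l, a peripheral subunit, went down in hypoxia, from 413.0 and 404.7 CPM in WT normoxia to 267.7 and 262.2 in WT hypoxia and from 321.0 and 342.6 to 256.5 and 249.5 CPM in FIH-KO cells. It fell by 0.63 ± 0.10 in WT (edgeR adjusted p = 0.000842) and 0.39 ± 0.10 in FIH-KO cells (adjusted p = 0.0218). Eif3b and Eif3i also fell in WT hypoxia, by 0.39 ± 0.14 (edgeR adjusted p = 0.0471) and 0.35 ± 0.11 (adjusted p = 0.0333). The WT decrease of Eif3l stood under each alternative run. The calls of Eif3c were lost without WT normoxia replicate 2 in WT cells (adjusted p = 0.0752), and those of Eif3c and Eif3l in FIH-KO cells without either FIH-KO normoxia replicate or FIH-KO hypoxia replicate 1 (up to 0.117 and 0.123) and in the fit on 4 libraries (0.109 and 0.127). That of Eif3b was lost without any 1 library (up to 0.265) and that of Eif3i without any library other than WT hypoxia replicate 1 (up to 0.204).

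**Figure D3:**
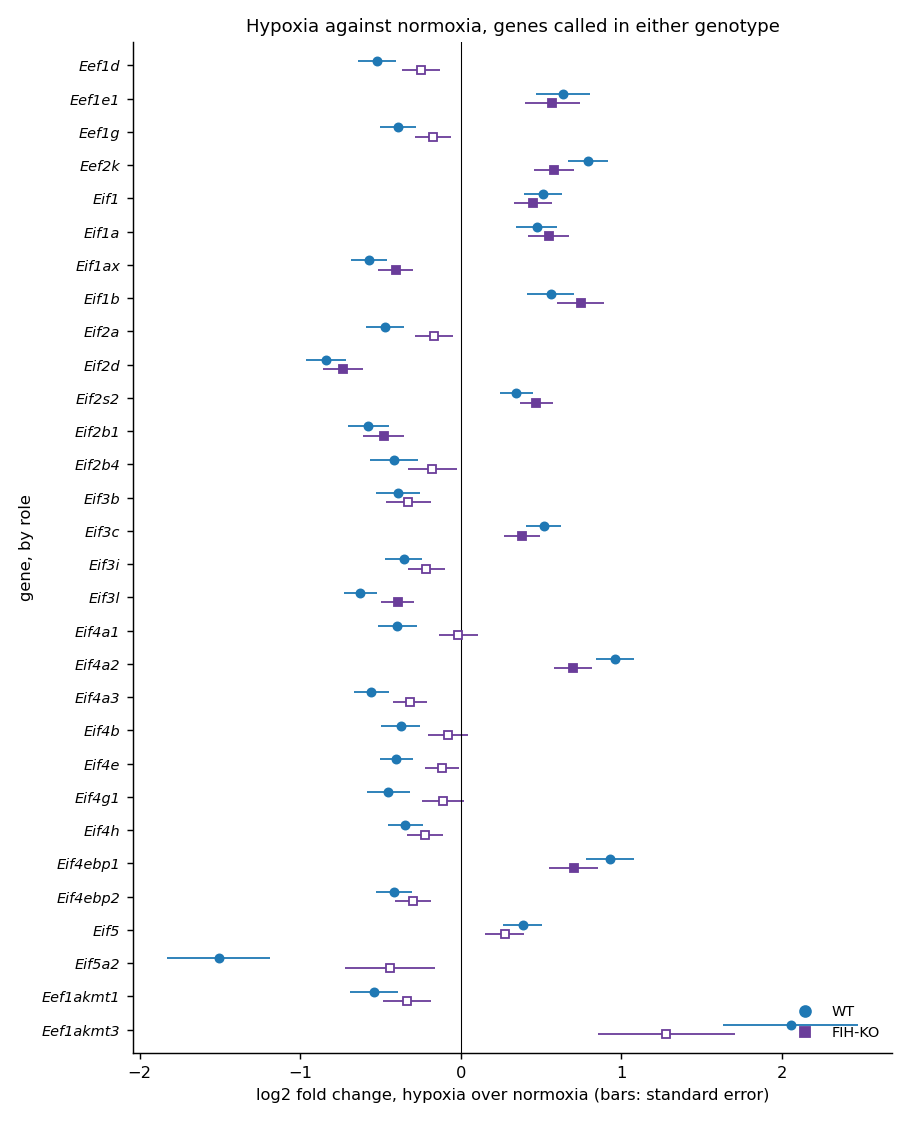
Log2 fold change of hypoxia over normoxia in WT (blue circles) and FIH-KO cells (purple squares), with standard errors, for the 30 factor genes called in either. Filled symbols passed the edgeR test at an adjusted p under 0.05; Eif4a2, Eif4ebp1 and Eef2k lie at 0.58 or above in both genotypes, and Eif2d at -0.73 or below.

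The eIF4 group reads the cap and unwinds the leader, and its cap-binding member Eif4e had the largest decrease of any tested factor gene in FIH-KO normoxia. Eif4e lies at chr3:138231936-138265457 (GRCm39, plus strand). It was counted at 269.3 and 260.3 CPM in WT normoxia, 114.2 and 122.1 in FIH-KO normoxia, 200.03 and 200.91 in WT hypoxia, and 103.9 and 114.4 CPM in FIH-KO hypoxia. The FIH-KO libraries lay far below the WT libraries at both oxygen levels, and overlapped each other. Eif4e fell in FIH-KO cells by 1.16 ± 0.10 in normoxia (edgeR adjusted p = 1.81e-05) and by 0.88 ± 0.10 in hypoxia (adjusted p = 0.000131), and both calls stood under each alternative run. In WT cells hypoxia lowered it by 0.40 ± 0.10 (edgeR adjusted p = 0.0113), which was lost without any 1 of the 4 libraries (adjusted p 0.0503 to 0.0646), and in FIH-KO cells the log2 fold change was -0.11 ± 0.10 (adjusted p = 0.501).

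The paralog Eif4e2 encodes 4EHP, a cap-binding protein also known to work with HIF-2 alpha in low oxygen. Its share of the reads of Eif4e, Eif4e2 and Eif4e3 was 34.2% ± 0.366 in WT normoxia and 46.0% ± 1.16 in FIH-KO normoxia. In hypoxia it was 42.8% ± 0.63 in WT and 52.6% ± 2.76 in FIH-KO cells (SD, n = 2). Per base of canonical transcript Eif4e2 held the largest share of the group. That share was 61.7% and 71.9% in WT and FIH-KO normoxia, and 69.8% and 77.0% in WT and FIH-KO hypoxia. Eif4e2 itself fell in FIH-KO normoxia by 0.39 ± 0.11 (edgeR adjusted p = 0.0154), a call lost without either WT normoxia replicate or FIH-KO normoxia replicate 1 (adjusted p up to 0.102). In FIH-KO normoxia the larger share of Eif4e2 thus stood beside fewer reads of both genes. In hypoxia its libraries were above those of normoxia, at 152.2 and 158.4 against 142.1 and 140.9 CPM in WT and 132.3 and 124.6 against 101.7 and 113.9 CPM in FIH-KO cells, and neither difference was called. Eif4e3 had 6.43 to 9.17 CPM throughout and was not called.

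The helicase paralogs Eif4a1 and Eif4a2 shifted against each other in hypoxia in WT cells, while in FIH-KO cells only Eif4a2 of the pair was called. Eif4a2, at chr16:22925894-22932886 (GRCm39, plus strand), had 176.7 and 172.1 CPM in WT normoxia, 182.0 and 221.6 in FIH-KO normoxia, 336.1 and 343.2 in WT hypoxia, and 314.8 and 340.1 CPM in FIH-KO hypoxia. Hypoxia libraries were far above normoxia libraries in both genotypes, which overlapped within each oxygen level only in hypoxia. It rose by 0.96 ± 0.12 in WT (edgeR adjusted p = 0.000134) and by 0.70 ± 0.12 in FIH-KO cells (adjusted p = 0.00211), and both calls stood under each alternative run.

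Eif4a1, the copy with more reads also per base, had 1717 and 1622 CPM in WT normoxia, 1103 and 1264 in FIH-KO normoxia, 1334 and 1204 in WT hypoxia, and 1158 and 1184 CPM in FIH-KO hypoxia. WT normoxia stood above the other 3 groups. It fell by 0.50 ± 0.12 in FIH-KO normoxia (edgeR adjusted p = 0.00993) and by 0.40 ± 0.12 in WT hypoxia (adjusted p = 0.0268), with a log2 fold change of -0.12 ± 0.12 for FIH-KO in hypoxia (adjusted p = 0.519). The calls were lost without WT normoxia replicate 1 (adjusted p = 0.0791 and 0.118), the first also without FIH-KO normoxia replicate 1 (0.0718), the second also without WT normoxia replicate 2 (0.0745) or WT hypoxia replicate 2 (0.166). The share of Eif4a2 in the reads of the pair was 9.33% and 9.59% in WT normoxia, 14.2% and 14.9% in FIH-KO normoxia, 20.1% and 22.2% in WT hypoxia, and 21.4% and 22.3% in FIH-KO hypoxia. In normoxia the Wilson 95% intervals, which cover counting error only, ended at 9.93% in WT and began at 13.7% in FIH-KO cells, while the hypoxia groups overlapped.

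**Figure D4:**
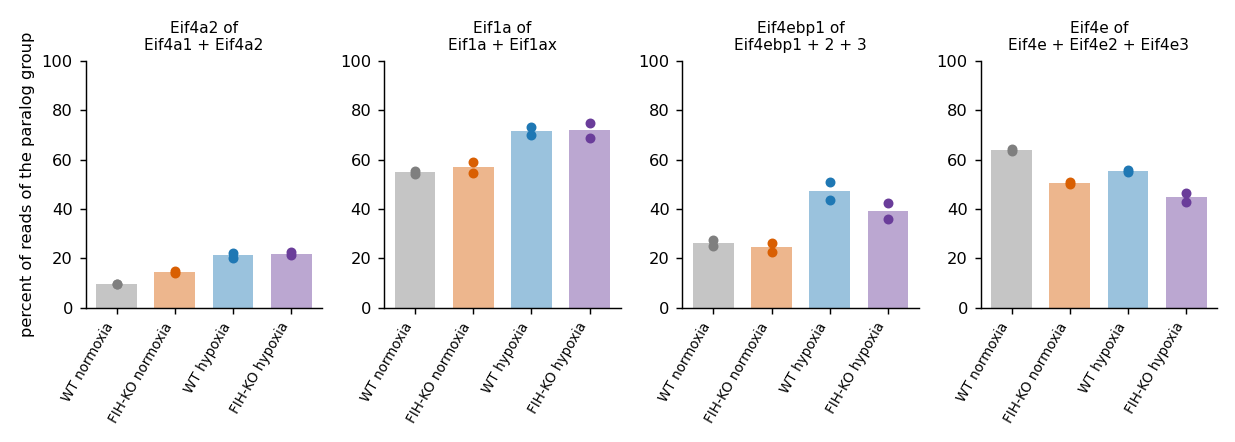
Share of 1 paralog in the reads of its group, in percent, for Eif4a2, Eif1a, Eif4ebp1 and Eif4e. Bars are means of 2 libraries, points are libraries and all axes run from 0 to 100; the shares of Eif4a2, Eif1a and Eif4ebp1 are higher in hypoxia, and that of Eif4e is lower in FIH-KO cells at each oxygen level.

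The scaffold and the helicase cofactors fell in WT hypoxia. Eif4g1, the main bridge between the cap and the ribosome, fell by 0.45 ± 0.13 (edgeR adjusted p = 0.0214), Eif4b by 0.37 ± 0.12 (adjusted p = 0.0353), and Eif4h by 0.34 ± 0.11 (adjusted p = 0.0323). Each of these calls was lost without either WT normoxia replicate or WT hypoxia replicate 2 (adjusted p up to 0.146, 0.202 and 0.196), that of Eif4b also without WT hypoxia replicate 1 (0.0503). Eif4a3, the helicase of the exon junction complex, fell by 0.56 ± 0.11 (edgeR adjusted p = 0.00226), from 199.9 and 195.3 to 135.6 and 133.1 CPM, and this stood under each alternative run. It also fell in FIH-KO normoxia by 0.37 ± 0.11 (edgeR adjusted p = 0.0235), which was lost without either WT normoxia replicate or FIH-KO normoxia replicate 1 (adjusted p up to 0.151). Of the 11 tested genes of the group 6 fell and 1 rose in WT hypoxia, which are 54.5% and 9.09% beside 15.5% and 16.9% of all tested genes. In FIH-KO hypoxia against FIH-KO normoxia 0 fell and 1 rose, beside 8% and 8.84%, and the test of the difference called none. Eif4g2 (DAP5, which drives cap-independent initiation) and Eif4g3 were not called in any comparison.

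Of the proteins that hold eIF4E, Eif4ebp1 encodes the 4E-BP that mTORC1 inactivates by phosphorylation. It had 107.6 and 135.2 CPM in WT normoxia, 118.1 and 136.7 in FIH-KO normoxia, 254.2 and 208.3 in WT hypoxia, and 228.8 and 186.3 CPM in FIH-KO hypoxia. The hypoxia libraries were above all normoxia libraries, and the genotypes overlapped at each oxygen level. It rose by 0.93 ± 0.15 in WT (edgeR adjusted p = 0.000835), which stood under each alternative run, and by 0.70 ± 0.15 in FIH-KO cells (adjusted p = 0.00858), which was lost without FIH-KO normoxia replicate 1 (adjusted p = 0.0684). The FIH-KO effect in normoxia was 0.07 ± 0.15 (edgeR adjusted p = 0.77).

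Reads of Eif4ebp1 per read of Eif4e followed both genes. The ratio was 0.399 and 0.520 in WT normoxia, 1.03 and 1.12 in FIH-KO normoxia, 1.27 and 1.04 in WT hypoxia, and 2.20 and 1.63 in FIH-KO hypoxia. WT normoxia was lowest and FIH-KO hypoxia highest, and the other groups overlapped between them. In WT hypoxia the ratio moved with more Eif4ebp1 and less Eif4e, and in FIH-KO normoxia with less Eif4e, since Eif4ebp1 overlapped there.

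Eif4ebp2 fell in WT hypoxia by 0.42 ± 0.11 (edgeR adjusted p = 0.014), from 322.0 and 361.1 to 243.9 and 268.1 CPM, and was higher in FIH-KO than in WT hypoxia, at 312.0 and 329.5 CPM, by 0.33 ± 0.11 (adjusted p = 0.0465). The first call was lost without WT normoxia replicate 2 or WT hypoxia replicate 1 (adjusted p = 0.118 and 0.0892). The second was lost without either WT hypoxia replicate or FIH-KO hypoxia replicate 2 (up to 0.204) and in the fit on 4 libraries (0.0701). Eif4ebp1 made up 26.1% ± 1.56 of the reads of the 4E-BP genes in WT normoxia and 47.4% ± 5.17 in WT hypoxia. In FIH-KO cells it made up 24.4% ± 2.65 and 39.2% ± 4.39 (SD, n = 2). Per base of canonical transcript its share was 51.4% and 72.8% in WT normoxia and hypoxia, and 49.0% and 65.7% in FIH-KO cells. Eif4enif1, whose product carries eIF4E to the nucleus and to P-bodies, fell in FIH-KO hypoxia by 0.44 ± 0.12 (edgeR adjusted p = 0.0152), a call lost without either WT hypoxia replicate or FIH-KO hypoxia replicate 1 (adjusted p up to 0.0898).

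Of the factors of subunit joining, Eif5b, the GTPase that docks the large subunit, had 313.8 and 298.4 CPM in WT normoxia, 208.3 and 227.1 in FIH-KO normoxia, 288.6 and 303.2 in WT hypoxia, and 227.2 and 220.0 CPM in FIH-KO hypoxia. FIH-KO libraries were lower at both oxygen levels, by 0.49 ± 0.10 (edgeR adjusted p = 0.00451) and 0.40 ± 0.10 (adjusted p = 0.0131) on the log2 scale, and oxygen left the groups overlapping in WT cells. The calls were lost without WT normoxia replicate 1 (adjusted p = 0.0506), and without either WT hypoxia replicate (0.0685 and 0.0906). The gene shares 1959 exonic bases with Rev1 on the opposite strand. Eif5, which triggers GTP hydrolysis by eIF2, rose in WT hypoxia by 0.39 ± 0.12 (edgeR adjusted p = 0.0285) and lost this call without any 1 library (adjusted p up to 0.319). Its decrease in FIH-KO against WT hypoxia, by 0.35 ± 0.12 (edgeR adjusted p = 0.0499), held only with DESeq2 among the 11 alternatives run, and the other 10 gave an adjusted p of 0.0515 to 0.319. Eif6, which keeps the large subunit apart, was not called in any comparison.

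eIF5A is the hypusine-bearing factor that helps ribosomes past stretches such as proline runs. Eif5a had 1840 and 1693 CPM in WT normoxia against 1106 and 1261 in FIH-KO normoxia and fell by 0.58 ± 0.13 (edgeR adjusted p = 0.0067), a call lost without replicate 1 of either group (adjusted p = 0.0629 and 0.054). Its rare paralog Eif5a2 had 7.39 and 6.63 CPM in WT normoxia, 8.34 and 13.7 in FIH-KO normoxia, 1.91 and 3.07 in WT hypoxia, and 6.995 and 9.242 CPM in FIH-KO hypoxia. The WT hypoxia libraries stood below all others. Eif5a2 fell in WT hypoxia by 1.51 ± 0.32 (edgeR adjusted p = 0.00398) and was higher by 1.72 ± 0.32 in FIH-KO than in WT hypoxia (adjusted p = 0.00203), and both calls stood under each alternative run.

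In FIH-KO cells Eif5a2 had a log2 fold change of -0.44 ± 0.28 in hypoxia (edgeR adjusted p = 0.316), and the FIH-KO effect in normoxia was 0.65 ± 0.28 (adjusted p = 0.106). The difference of the FIH-KO effect between hypoxia and normoxia was 1.07 ± 0.43, with an edgeR adjusted p of 0.665, so the contrast between the genotypes was not called. Eif5a2 never exceeded 0.910% of the reads of the pair as a group mean.

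Median FIH-KO effects differed between chromosomes, from the lowest on 3 and 19 to the highest on 2 and 16. In FIH-KO normoxia the 683 tested genes of chromosome 3 had a median log2 fold change of -0.36 and the 476 of chromosome 19 one of -0.38, and in hypoxia the medians were -0.41 and -0.45. Chromosome 2 had 0.23 in normoxia and 0.21 in hypoxia, and chromosome 16, which holds Eef2kmt, had 0.23 and 0.18, beside 0.58 and 0.83 for Eef2kmt and 0.10 and 0.10 for its 10 nearest tested genes. Of the 61 tested factor genes 6 lie on chromosomes 3 and 19, namely Eif4e, Eif2a and Eif5a2 on chromosome 3, and Eef1g, Eif1ad and Eif3a on chromosome 19. The 10 tested genes nearest to Eif4e had a median of -0.46 in normoxia and -0.29 in hypoxia, against -1.16 and -0.88 for Eif4e. Those nearest to Eef1g had -0.65 and -0.61, against -0.76 and -0.54 for Eef1g, so that its decrease was close to that of its neighbors.

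The genes nearest to Eif3a had -0.40 and -0.38, and those nearest to Eif1ad -0.19 and -0.17. Eif2a had -0.38 in normoxia, beside the median of -0.36 for chromosome 3. Eif5a2 went against its chromosome, with 1.72 in hypoxia beside -0.46 for its neighbors. Around Eef2k the neighbors had a median of -0.02 and 0.11. Whether such chromosome-wide values play a part in the results of these genes was not tested. Without the 6 genes of chromosomes 3 and 19, 55 tested factor genes were left. Of these, 2 rose and 17 fell in FIH-KO normoxia, and 3 rose and 10 fell in hypoxia, with medians of -0.20 and -0.12. The lower genes were 30.91% and 18.18% of those left. The share of all tested genes called outside chromosomes 3 and 19 was not counted, so these counts have no background beside them. In hypoxia against normoxia the medians of chromosomes 3 and 19 lay between -0.07 and 0.003.

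**Figure D5:**
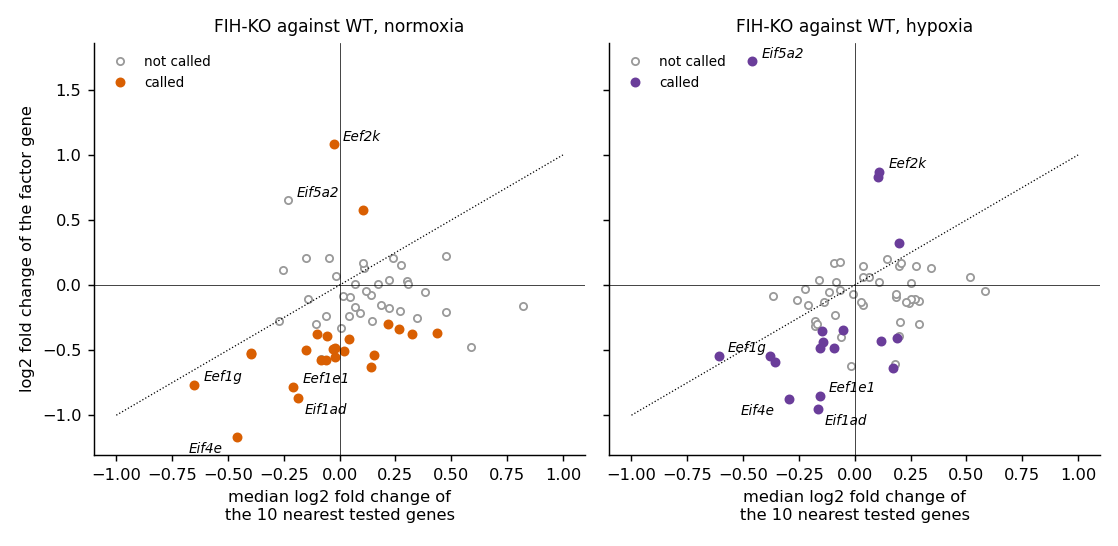
Log2 fold change of each of the 61 tested factor genes (vertical) against the median of its 10 nearest tested genes that are not factors (horizontal), for FIH-KO over WT in normoxia and hypoxia. Filled points passed the edgeR test and the dotted line marks equal values; Eef1g lies near the line, while Eif4e and Eif1ad lie below it and Eef2k and Eif5a2 above.

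Genes that work with these factors were followed in lists named by function. Of 54 genes of 6 lists, 5 rose and 16 fell in FIH-KO normoxia, 6 rose and 8 fell in FIH-KO hypoxia, 4 rose and 8 fell in WT hypoxia, and 2 rose and 2 fell with hypoxia in FIH-KO cells. The lower genes were 29.6% in FIH-KO normoxia, where 13% of all tested genes were lower. They were 14.8% in FIH-KO hypoxia beside 13.9%, 14.8% in WT hypoxia beside 15.5%, and 3.70% with hypoxia in FIH-KO cells beside 8%. The higher genes were 9.26%, 11.1%, 7.41% and 3.70%, beside 15.2%, 14.1%, 16.9% and 8.84% of all tested genes. Of the 6 eIF2 alpha kinases and phosphatase subunits 1 rose and 1 fell in FIH-KO normoxia (16.7% each), and 2 rose and 0 fell in FIH-KO hypoxia (33.3% and 0%). In WT hypoxia 1 rose and 1 fell (16.7% each), and with hypoxia in FIH-KO cells 1 rose and 0 fell (16.7% and 0%). Eif2ak4 (GCN2, the amino acid sensor) rose in FIH-KO cells by 0.92 in normoxia (edgeR adjusted p = 0.000419) and 0.67 in hypoxia (adjusted p = 0.003). The highest log2 fold change of these 6 in FIH-KO hypoxia was 0.85, that of another gene. Ppp1r15a (GADD34, which directs phosphatase to eIF2 alpha) rose in hypoxia by 3.34 in WT (edgeR adjusted p = 1.68e-05) and by 2.62 in FIH-KO cells (adjusted p = 0.000134). Of the 10 mTORC1 and MNK genes 2 rose in FIH-KO cells at each oxygen level, Tsc1 (a brake on mTORC1) and Mknk2 (which phosphorylates eIF4E), and 2 fell in normoxia, the S6 kinases Rps6kb1 and Rps6kb2. That is 20% in each direction in normoxia, beside 15.2% higher and 13% lower of all tested genes.

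Of the 10 cap and poly(A) partners 5 fell and 1 rose in FIH-KO normoxia, beside 13% and 15.2% of all tested genes, shares that apply to the normoxia counts of the lists that follow (13.9% and 14.1% in hypoxia). In FIH-KO hypoxia 4 of these 10 fell and 0 rose. Larp1, which represses mRNAs with terminal oligopyrimidine tracts, fell by 0.71 at both oxygen levels (edgeR adjusted p = 0.00161 and 0.00158). Pdcd4, an inhibitor of eIF4A, rose in normoxia by 1.41 (edgeR adjusted p = 0.000549) and had a log2 fold change of 0.59 in hypoxia that was not called. The calls of genes in the 6 lists were not followed through the alternatives. Of the 9 termination, recycling and rescue factors 3 fell and 1 rose in normoxia, and 2 fell and 1 rose in hypoxia. Of the 9 hypusine and diphthamide enzymes, which modify eIF5A and eEF2, 2 fell in normoxia and in hypoxia 1 fell and 1 rose. The 10 mitochondrial translation factors had 3 lower genes in FIH-KO normoxia and 3 in WT hypoxia, and 0 higher ones in any comparison. In WT hypoxia that is 30%, beside 15.5% of all tested genes.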

How the data were processed

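The 8 libraries were TruSeq stranded mRNA libraries read in pairs. According to the labels and the study's methods, reads were demultiplexed by bcl2fastq and mapped by STAR (GRCm39), and the deposited values are the raw counts per gene that the authors obtained with HTSeq. The annotation release, strand setting and tool versions are not given in the sources used here. Library totals of 14519731 to 18177016 counts set the counting precision.

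Genes were filtered with filterByExpr by group, scaled by TMM and tested with edgeR 4.0.16 (quasi-likelihood, R 4.3.3) in 1 fit of all 8 libraries, with Benjamini-Hochberg adjustment over 13933 genes and a threshold of 0.05. Standard errors are the log2 fold change divided by the root of F. CPM values are TMM-scaled. The code was tested on simulated data. Alternatives were RLE and upper-quartile scaling, 2 other filters, DESeq2 1.42.0, a replicate block, the 4 libraries alone and each library left out. The rule for named genes took up to 8 a direction called in FIH-KO cells at both oxygen levels (mean of at least 50 counts, ranked by the smaller change), the 5 largest calls of hypoxia in each genotype, listed paralog groups, and the gene with the most reads in each role group. The other factor genes described were chosen after their values were seen, because they were called. Positions are from GENCODE on GRCm39. The members and lists were chosen with earlier results of these data known.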

Additional observations from a re-analysis of the deposited data

Results flagged for a closer look

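Eef1akmt3, an eEF1A lysine methyltransferase with 7 to 33 reads in a library, had a positive log2 fold change in hypoxia in both genotypes. Its FIH-KO effect was 0.17 (log2) in normoxia and -0.61 in hypoxia, opposite directions without overlap of the groups. The difference of the effects was -0.77, with an edgeR adjusted p of 0.835, so it was not called.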

How the results depend on the processing

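Of 85 calls in 44 factor genes, 25 kept their direction and their side of the threshold under every alternative run, and 0 reversed. Of the values given without a call, the FIH-KO effect of Eif4ebp1 in normoxia turned to -0.12 without WT normoxia replicate 1 and to -0.07 without FIH-KO normoxia replicate 2. With each library left out in turn, FIH-KO in normoxia gave 1 to 1 higher and 7 to 22 lower genes with a median of -0.33 to -0.23, and FIH-KO in hypoxia 3 to 4 higher and 4 to 12 lower with -0.18 to -0.00041. Hypoxia in WT cells gave 5 to 9 higher and 7 to 14 lower with -0.23 to -0.13, and hypoxia in FIH-KO cells 3 to 9 and 1 to 4 with -0.051 to 0.047. The difference of effects gave 0 to 0 calls with a median of 0.080 to 0.22. With no filter beyond 1 read the median of hypoxia in WT cells was -0.12, and with only its 4 libraries hypoxia in FIH-KO cells had 1 lower gene. Eif5a2 in FIH-KO normoxia was called with no filter (adjusted p = 0.0307). DESeq2 gave 2 higher and 23 lower genes for FIH-KO in normoxia. With the replicate number as a block the counts were 2 and 23, 4 and 14, 11 and 18, and 9 and 4. Deviations of libraries with the same number correlated at -0.01 to 0.193, highest between WT hypoxia and FIH-KO hypoxia. The labels name no batch, and whether libraries with the same number shared one was not tested. The causes of these shifts were not tested. With 2 libraries a group, depth and replicate number limit genes near 10 reads.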
